A study of Mus musculus with 8 samples.

Results

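The peaks described here lie in the assembled DNA next to the centromere of the mouse autosomes. A member was any peak of the 4 deposited DRIP-seq lists whose midpoint fell between 3 Mb and 8 Mb of chromosomes 1 to 19 in the mm10 build, which gave 17141 of 344010 peaks. The first 3 Mb of each of these chromosomes hold no base calls in the reference, and further gaps lie inside most of the windows (764983 bp in all). Each window was set against a 5 Mb window at the middle of the same chromosome, which held 11220 peaks in all.

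Mouse autosomes are telocentric: the centromere sits at the very end of the chromosome, flanked by long arrays of satellite DNA that are missing from the assembly. The sequence that follows is known for recent duplications, satellite remnants and copies of other repeats, and for silent chromatin close to the satellites. R-loops are three-stranded structures in which RNA pairs with a DNA strand and leaves the other strand single, and pericentromeric and ribosomal repeats are among the sequences where they are known to form.

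DRIP-seq recovers DNA bound by the S9.6 antibody, which binds RNA-DNA hybrids. The cells were mouse embryonic fibroblasts with floxed Rtel1 alleles (RTEL1 is a helicase that unwinds G-quadruplex DNA and telomeric loops) and an inducible wild-type RNaseH1-GFP transgene, whose enzyme degrades the RNA of a hybrid. All 4 libraries came from these cells. They were infected with adenovirus carrying GFP (the GFP control) or Cre (which removes Rtel1), and 48 h later received doxycycline at 2 µg/ml (DOX) or a mock treatment for 48 h. The groups are GFP mock and GFP DOX, then Cre mock and Cre DOX, and this is the list order in which 4 values are given below. Each is 1 library made from 3 pooled immunoprecipitations, so no comparison between conditions could be tested, and the intervals given cover counting error only. The 4 input libraries were not analysed here. In the centromere-proximal windows the lists held 4177, 3257, 4485 and 5222 peaks, which was 4.77% to 5.41% of each list. Peak lists give no check of the Rtel1 deletion or of RNaseH1 induction. Read depth is unknown, and a deeper library gives more peaks.

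A few sequences behind the results that follow are shown first, on the plus strand of mm10: the highest-scoring region, a copy of it, a match to ribosomal RNA, a predicted G-quadruplex and a satellite unit. In each list the proximal region with the highest score was the same, on chromosome 3, and its GFP mock peak at chr3:5860335-5860581 read:
chromosome 3 peak: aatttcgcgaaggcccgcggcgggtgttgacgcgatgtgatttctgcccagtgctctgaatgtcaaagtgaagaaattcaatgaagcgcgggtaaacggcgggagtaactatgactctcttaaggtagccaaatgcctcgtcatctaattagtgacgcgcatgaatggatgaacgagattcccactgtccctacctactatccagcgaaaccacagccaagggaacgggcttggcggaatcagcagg
A peak in an intron of Rsph3b (a paralog of the radial spoke gene Rsph3a) on chromosome 17, at chr17:6941882-6942099, was a copy of it. Capitals mark the bases inside 20-mers shared exactly with the stretch of the chromosome 3 region that all 4 lists covered:
Rsph3b intron peak: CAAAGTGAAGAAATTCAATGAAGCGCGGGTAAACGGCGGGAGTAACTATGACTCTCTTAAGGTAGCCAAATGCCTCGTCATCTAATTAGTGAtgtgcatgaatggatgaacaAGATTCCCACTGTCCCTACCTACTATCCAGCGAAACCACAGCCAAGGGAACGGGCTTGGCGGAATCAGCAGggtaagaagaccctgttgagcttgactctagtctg
The GFP DOX peak at chr8:3754383-3754646, close to Cd209a, is given with capitals for bases inside 20-mers shared with Rn18s-rs5, the RefSeq annotation of 18S ribosomal RNA sequence on chromosome 17:
chromosome 8 peak: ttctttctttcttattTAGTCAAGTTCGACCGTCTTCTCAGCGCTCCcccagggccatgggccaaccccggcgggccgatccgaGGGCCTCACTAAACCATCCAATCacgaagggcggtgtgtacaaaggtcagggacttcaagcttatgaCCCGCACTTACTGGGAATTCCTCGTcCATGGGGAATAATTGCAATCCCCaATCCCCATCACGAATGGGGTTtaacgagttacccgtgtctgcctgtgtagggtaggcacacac
The highest-scoring Cre DOX peak of at most 300 bases lay in an intron of Tiam2, at chr17:3379811-3380023, with capitals for the bases of predicted G-quadruplexes (G4Hunter windows of 25 bases with a mean score of at least 1.5 on either strand):
Tiam2 intron peak: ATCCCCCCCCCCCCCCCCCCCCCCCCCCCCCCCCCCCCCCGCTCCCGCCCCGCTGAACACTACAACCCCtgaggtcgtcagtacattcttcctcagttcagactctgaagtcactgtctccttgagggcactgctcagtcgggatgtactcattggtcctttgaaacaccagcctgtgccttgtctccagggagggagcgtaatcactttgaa
A repeat unit of the satellite array that opens chromosome 9, taken from the start of the Cre mock peak at chr9:3011511-3011892, is printed without capitals:
chromosome 9 unit: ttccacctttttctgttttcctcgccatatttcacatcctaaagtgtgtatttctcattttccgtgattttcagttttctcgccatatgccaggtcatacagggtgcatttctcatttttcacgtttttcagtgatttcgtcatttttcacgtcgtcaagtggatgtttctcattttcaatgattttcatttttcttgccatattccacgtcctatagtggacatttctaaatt

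Peaks were denser at the centromere-proximal end than in the middle of the same chromosomes in each of the 4 lists. GFP mock held 44.3 peaks per assembled Mb against 30.7 in the middle windows, a ratio of 1.44 (95% interval 1.37 to 1.51). GFP DOX held 34.6 against 19.9, with a ratio of 1.74 (1.64 to 1.84). Cre mock held 47.6 against 31.3, with a ratio of 1.52 (1.45 to 1.59). Cre DOX held 55.4 against 36.2, with a ratio of 1.53 (1.47 to 1.60). The windows also exceeded the density over all autosomes, which was 33.5, 22.9, 35.3 and 39.3 peaks per Mb in list order. Chromosomes did not all follow: the proximal window was the denser on 12 (mock) and 15 (DOX) of 19 chromosomes in GFP cells, and on 14 and 13 in Cre cells.

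**Figure D1:**
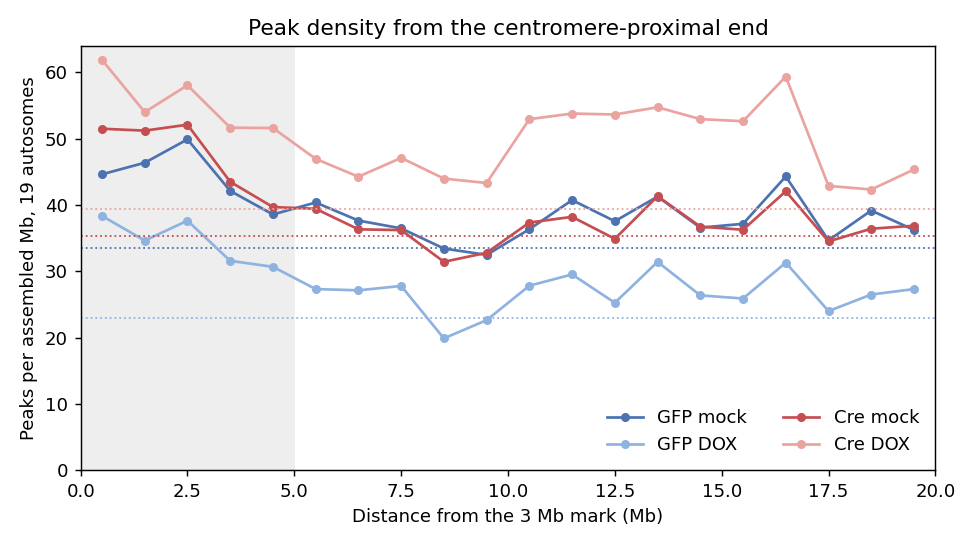
Peaks per assembled Mb, summed over 19 autosomes, against distance from the 3 Mb mark in 1 Mb steps. Solid lines are the 4 lists, dotted lines each list's autosome-wide density, and the grey band the 5 Mb window, inside which the first 1 Mb of Cre DOX reached 61.9 peaks per Mb.

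Inside the windows the density was higher over the first 3 Mb than over the last 2 Mb in each list. It was 44.6, 38.4, 51.5 and 61.9 peaks per Mb in the first 1 Mb after the 3 Mb mark and 38.6, 30.7, 39.7 and 51.6 in the last. Between 8 Mb and 9 Mb from that mark the values were 33.4, 19.9, 31.4 and 44.0, the last still above the Cre DOX average over the autosomes. The decline did not go on beyond that, and between 16 Mb and 17 Mb the values were 44.3, 31.3, 42.1 and 59.4, so dense stretches were not confined to the windows. At the outer border, the last 100 kb inside held 70, 49, 69 and 79 peaks and the next 100 kb outside 64, 36, 61 and 68. In the first 100 kb the lists held 69, 81, 82 and 134 peaks. The satellite array that opens chromosome 9 held 16, 17, 17 and 15 of these. Over the first 100 kb the density was 89.5 per Mb in Cre DOX against 46.1 in GFP mock. The median distance of a chromosome's first peak from the 3 Mb mark, gaps included, ranged from 49.1 kb in Cre mock to 63.5 kb in Cre DOX.

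Repeat-masked peaks made up most of the difference between proximal and middle windows. Peaks with over 50% of their bases in lower case, the reference's mark for repeats, made up 72.8% of proximal GFP mock peaks (71.4% to 74.1%) against 61.1% of those in the middle (59.3% to 62.9%). The other shares, in list order, were 73.7% against 59.6%, 65.3% against 51.5% and 80.6% against 75.3%. The density of these masked peaks was 1.72 (1.62 to 1.82), 2.15 (2.00 to 2.30), 1.93 (1.81 to 2.05) and 1.64 (1.56 to 1.72) times that of the middle, so the excess was there in each list. Per Mb of all assembled sequence, peaks with at most 50% masked bases had ratios of 1.01 (0.928 to 1.10), 1.13 (1.03 to 1.25), 1.09 (1.01 to 1.17) and 1.2 (1.10 to 1.32). Masked sequence was itself more common near the centromere, at 39.8% of bases against 33.5%. Per Mb of masked sequence, the masked peaks were 1.45, 1.81, 1.62 and 1.38 times as dense. Per Mb of unmasked sequence, the other peaks were 1.11 (1.03 to 1.21), 1.25 (1.13 to 1.38), 1.2 and 1.33 times as dense, so on that scale both kinds were denser near the centromere and in Cre DOX the ratios were alike.

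**Figure D2:**
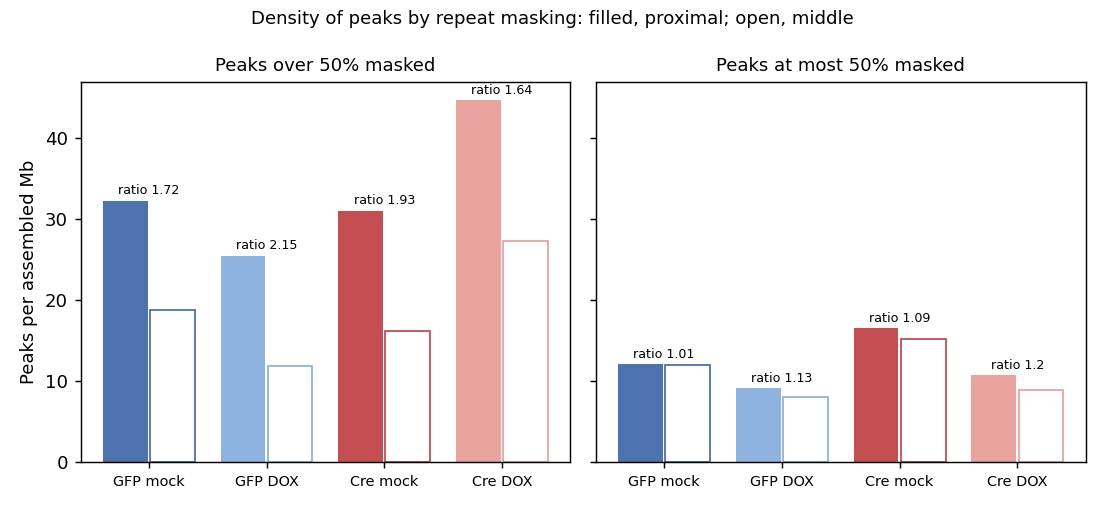
Peaks per assembled Mb in the centromere-proximal (filled bars) and middle (open bars) windows for each list, with peaks over 50% repeat-masked on the left and the others on the right. The printed ratio is proximal over middle, from 1.64 to 2.15 on the left and from 1.01 to 1.2 on the right.

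The excess also lay away from genes. Where 100 kb held no start of a protein-coding gene, the density ratio was 1.75, 2.28, 1.90 and 1.72. With 1 or 2 such starts the ratios were 1.14, 1.28, 1.16 and 1.45, and with 3 or more they were 1.02, 1.09, 1.09 and 1.03. Genes were not the scarcer near the centromere: 904 protein-coding genes began there against 701. With both windows weighted to the same mix of gene density, the ratios were 1.44, 1.73, 1.49 and 1.55. In gene-free 100 kb pieces the proximal window was denser on 16, 17, 15 and 15 of 19 chromosomes.

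The windows differed in how unique their sequence was, which matters for short reads. Among 32-base words sampled every 10 bases, 24.6% occurred elsewhere in the reference in the proximal windows and 13.9% in the middle. In 100 kb pieces with under 10% of such repeated words the ratios were 1.29, 1.64, 1.53 and 1.56, at 10% to 20% they were 1.40, 1.57, 1.52 and 1.25, and at 20% to 40% they were 1.53, 1.68, 1.56 and 1.28. In pieces with 40% or more they were 0.974, 0.989, 1.00 and 0.837. There were 125 such pieces in the proximal windows and 22 in the middle. The proximal window of chromosome 14, where 89.7% of sampled words were repeated and few peaks were called, was not left out of these. How reads that fit several places were assigned is not given in the sources used here, and its part in the result was not tested. GC content was alike, at 41.7% against 41.5%. Predicted G-quadruplexes were no more frequent near the centromere, at 538 against 569 per Mb. Peaks that held any such sequence were 24.7%, 17.6%, 21.9% and 24.4% of the proximal peaks, below the 29.9%, 24.7%, 29.4% and 25.2% of the middle.

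Chromosomes ranged widely. On chromosome 3, whose window holds 8 protein-coding genes, the lists had 549, 421, 495 and 555 peaks, or 110, 84.2, 99 and 111 per Mb, which was 2.21 to 2.97 times its middle window. On chromosome 19, whose window is the richest in genes with 185, they had 476, 414, 569 and 433. On chromosome 14 only 22, 9, 17 and 19 peaks were called, although the window holds 103 protein-coding genes, and 89.7% of its sampled words occur elsewhere. Chromosome 7 had the highest ratios, 4.79 to 7.42, where the middle window held 33, 15, 28 and 55 peaks and the proximal 156, 110, 187 and 282. Chromosome 9 set Cre DOX apart, with 375 proximal peaks against 181, 135 and 187 in the other lists. Its ratio was 3.10 there, and 0.739, 1.13 and 0.817 in the others. The middle window of chromosome 9 held 245, 119, 229 and 121 peaks, so the contrast with the mock lists also rests on the middle counts.

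**Figure D3:**
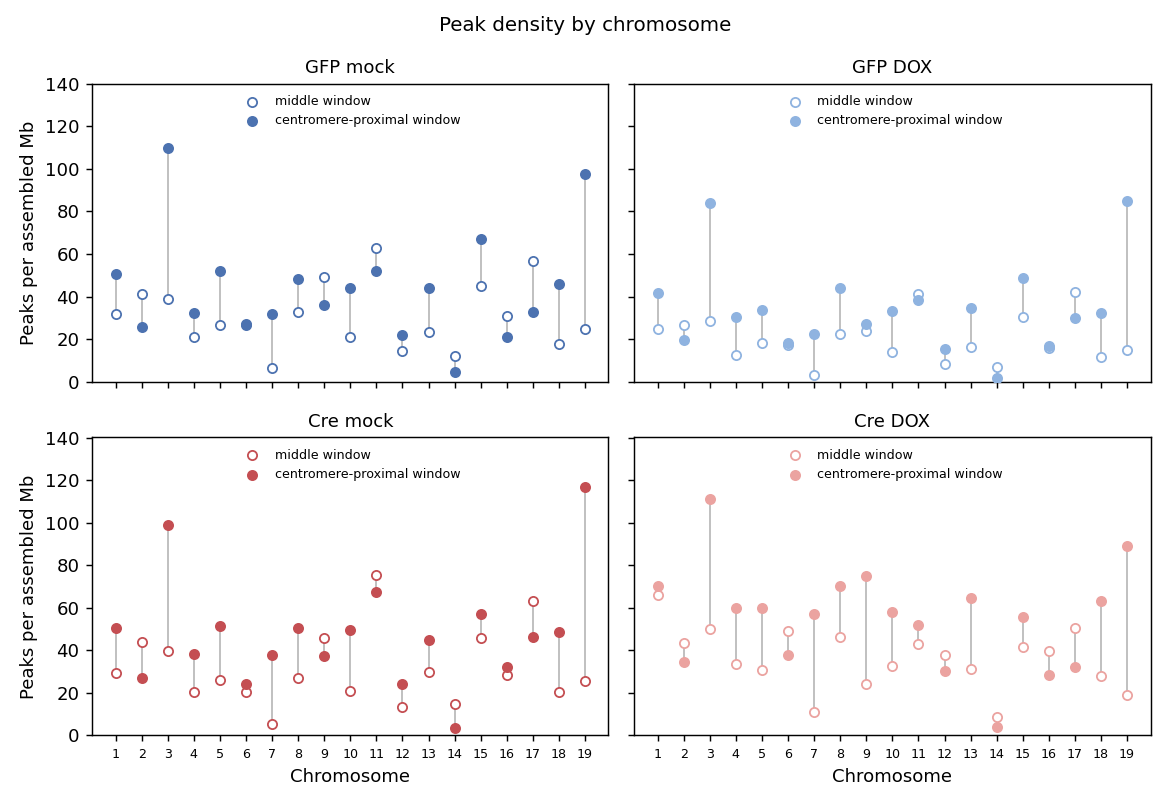
Peaks per assembled Mb in the centromere-proximal window (filled) and the middle window (open) of each autosome, 1 panel per list, joined by a line for each chromosome. Chromosomes 3 and 19 hold the densest proximal windows in all 4 lists, and chromosome 14 lies below its middle in each.

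Proximal peaks were wider as well. The median width was 331, 386, 371 and 588 bp in list order, against 277, 334, 322 and 479 bp in the middle. The difference was within counting error for top-decile GFP DOX peaks (ratio 1.01, 0.781 to 1.54) and, among peaks at most 50% masked, for Cre mock (1.06, 0.979 to 1.16) and Cre DOX (1.09, 0.993 to 1.19). Peaks of 2 kb or more were 2.32% of proximal GFP mock peaks (1.89% to 2.83%) against 0.890% (0.582% to 1.30%). They were 13% of proximal Cre DOX peaks (12.1% to 13.9%) against 7.69% (6.82% to 8.63%). Peaks covered 2.12%, 2.12%, 2.86% and 5.53% of the proximal sequence, so that Cre DOX covered the most, and 1.16%, 1.01%, 1.53% and 2.83% of the middle. The lists differed in their narrowest peak, at 106, 107, 132 and 213 bp over the whole list, and its part in the differences of width and coverage between lists was not tested. The widest of all included 1 of 10612 bp over Fkbp2, Plcb3 and Ppp1r14b on chromosome 19 in Cre DOX, and 11857 bp over Smtn, which encodes the smooth muscle protein smoothelin, on chromosome 11 in Cre mock.

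Several of the strongest regions of the windows share sequence with ribosomal RNA. The chromosome 3 region had a score (a number of the peak caller that rises with significance) of 1533 and 1600 in GFP cells, mock then DOX, and of 1709 and 1263 in Cre cells, and it ranked 2, 2, 3 and 5 in the whole lists. Fold enrichments there were 6.98, 7.17, 7.27 and 6.06, with Cre DOX the lowest on both measures. Its letters read as part of the conserved core of the large-subunit (28S) ribosomal RNA, which is background knowledge, since the RefSeq entry of 28S sequence used here holds 420 bases and shared none of its 20-mers. Searching all windows for the 20-mers of its common 246 bases found 5 proximal places, itself included, and 0 in the middle windows. Of its 1291 matches of 32 bases elsewhere, on 13 chromosomes, 24.6% lay in proximal windows, so most copies lay outside both kinds of window. The chromosome 9 place shared only 21 of the 227 20-mers, against 105 to 154 for the copies on chromosomes 2 and 17. Peaks touched all 5 places in each list except Cre mock, which had 4.

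The other copies scored far lower than the chromosome 3 region. On chromosome 2 the scores in list order were 216, 98, 169 and 24. At the promoter of Rsph3a, which encodes a radial spoke protein of cilia, it was 182, 77, 289 and 92. In the Rsph3b intron it was 112, 89, 164 and 111. On chromosome 9 the peak that touched the copy scored 179 and 145 in GFP cells and 374 in Cre DOX, while no Cre mock peak touched it, although the merged region around it scored 286 in that list.

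Peaks also lay at sequence shared with Rn18s-rs5. On chromosome 6, 641 exact 20-mers were shared and the scores were 427, 288, 368 and 223. On chromosome 8, with 53 shared 20-mers, they were 372, 340, 263 and 265. A chromosome 9 place with 13 scattered shared 20-mers was touched by peaks of scores 38, 30, 54 and 14, of which the GFP DOX peak held 0 shared bases. The middle windows held a match of 102 20-mers on chromosome 4, with scores of 100, 89, 120 and 47, and 3 places with 1 to 3 shared 20-mers, so the matches differed in length and the shares of places with peaks were not compared. A region with no such sequence, chr9:4259876-4260594, scored 315, 355, 273 and 290, and the stretch common to its peaks had a GC content of 77.6%, with 109 bases in predicted G-quadruplexes.

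**Figure D4:**
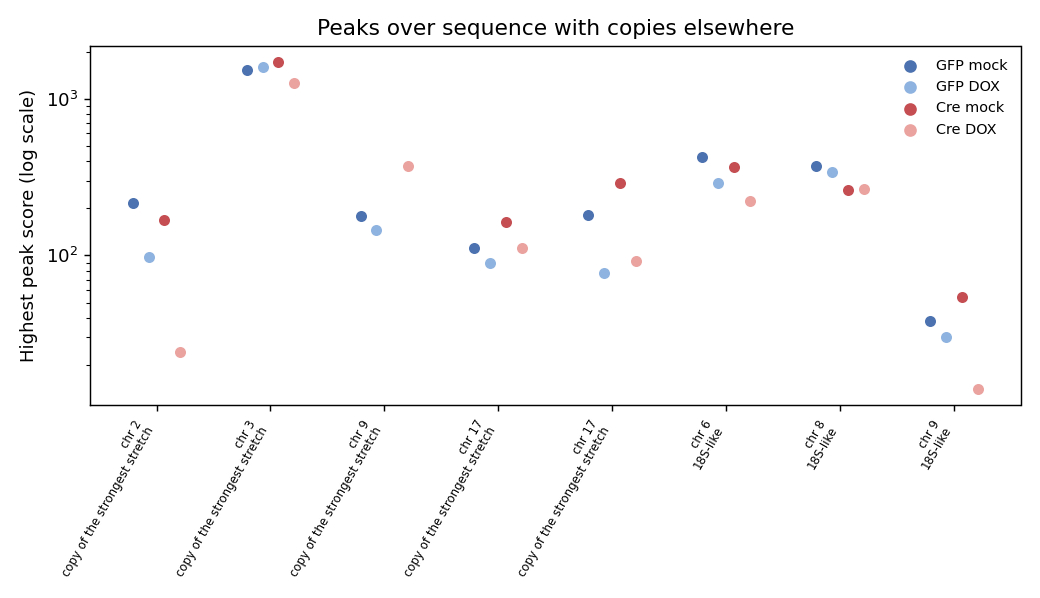
Highest peak score (log axis) in each list over proximal places that share sequence with the chromosome 3 region or with 18S ribosomal RNA sequence, named by chromosome. A missing point means no peak; the chromosome 3 copy is the highest, from 1263 to 1709.

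The assembled part of chromosome 9 opens in satellite DNA. Over its first 38 kb, 18 of 19 steps of 2 kb repeated best with a period of 234 bases, the unit length of mouse major satellite, at 56.3% to 83.6% identity between neighbouring units, and the step from 8 to 10 kb had another best period. The next 40 kb had a period of 31 bases. The first array held 16, 17, 17 and 15 peaks, which covered 20.95%, 23.2%, 24.7% and 41.6% of it. Of these, 13, 17, 12 and 13 were in the top decile of their list by score. Their fold enrichments ran from 2.66 to 5.56, 2.43 to 7.27, 2.28 to 5.75 and 2.44 to 4.66. The median fold enrichments of all proximal peaks were 3.54, 3.53, 3.49 and 3.16, so a high score here did not always go with a high fold enrichment. The second array held 0, 0, 0 and 2 peaks, so neighbouring tandem repeats differed. Copies of words of the first array occur elsewhere at 2434 positions, and the part of reads from those positions was not tested. Annotated genes inside the first array, such as Gm10717, Gm10718 and Gm10719, carried its peaks in their promoters. For Gm10717 the scores were 148, 122, 178 and 127, at fold enrichments of 3.15, 2.87, 2.89 and 3.43.

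Peaks near the centromere were shared between lists more often. In the proximal windows 62.3% of GFP mock peaks (60.8% to 63.8%) had no overlapping GFP DOX peak, against 72.6% in the middle windows and 69.4% over the whole list. Of Cre mock peaks 39.7% (38.3% to 41.2%) were absent from Cre DOX, against 57.4% and 51.3%. Among Cre mock peaks at most 50% masked the share was 72.5%, against 79.9% in the middle, and among top-decile peaks 65.2% against 84.8%. Between genotypes without doxycycline, 60.6% of Cre mock peaks (59.2% to 62.1%) had no GFP mock partner, against 67.2% and 64.8%. That difference of -6.58 points was within counting error for top-decile peaks, at -3.65 (-10.2 to 3.10), and for peaks at most 50% masked, at -2.07 (-5.21 to 1.09). In the other direction the share was 54.6% (53.1% to 56.2%), against 64.2% and 61.5%. Among top-decile peaks that difference was -7.07 points, with a counting interval that reached 0 (-14.0 to 0.000983). The remaining proximal shares followed the same order beside their whole lists. Of the GFP mock peaks, 39.4% lacked a Cre DOX partner (whole list 51%). Of the GFP DOX peaks, 54.2%, 42.7% and 27% lacked a partner in GFP mock, Cre mock or Cre DOX (57%, 48.3% and 37.5%). Of the Cre mock peaks, 59.2% lacked one in GFP DOX (66.9%). Of the Cre DOX peaks, 61%, 63.7% and 57% lacked one in GFP mock, GFP DOX or Cre mock (65.3%, 70.3% and 63.6%). For all 12 ordered pairs of lists the proximal share was the lower, by 5.23 to 18.1 percentage points, and on 12 to 18 of 19 chromosomes.

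**Figure D5:**
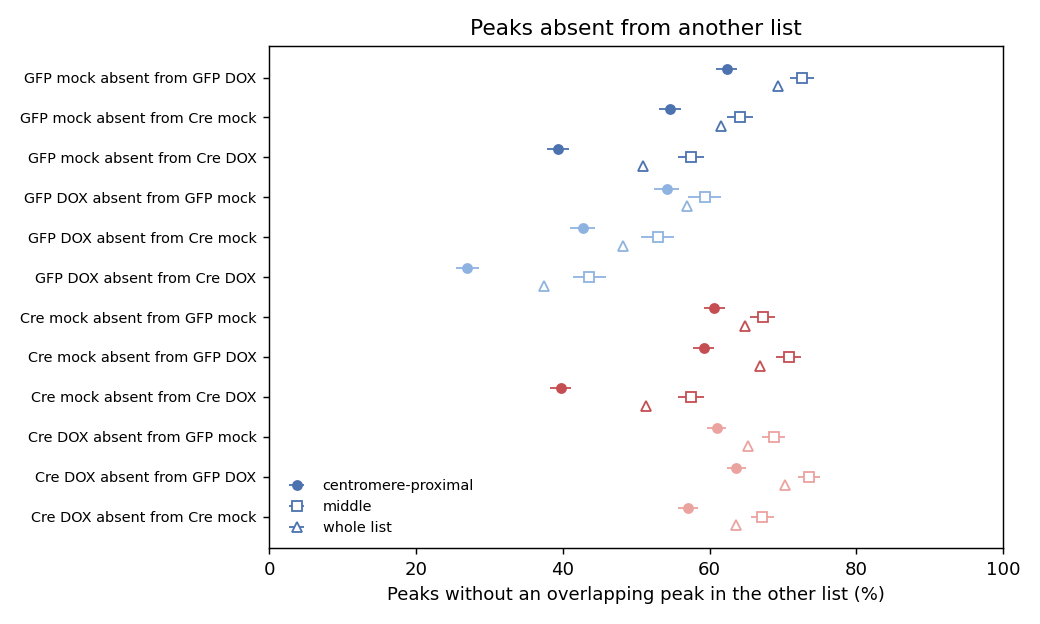
Share of a list's peaks with no overlapping peak (1 bp) in another list, for the 12 ordered pairs, in the centromere-proximal windows (filled circles), the middle windows (squares) and the whole list (triangles), with exact 95% intervals. Circles lie to the left of squares and triangles in each pair.

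The proximal share was also the lower within each quartile of width for the 4 pairs named above, although intervals overlapped in some: Cre mock peaks absent from GFP mock were 72% against 73% in the quartile of 173 to 343 bp and 64.5% against 67.5% in that of 343 to 586 bp. Among the narrowest Cre mock peaks 61.9% were absent from Cre DOX near the centromere against 76.2% in the middle, and among the widest 15.1% against 28.3%. Merging overlapping peaks gave 8513 proximal regions, of which 1083 (12.7%) held a peak of all 4 lists, against 483 of 6780 (7.12%) in the middle. The density ratio rose with the number of lists, from 1.11 for regions in 1 list to 1.32, 1.63 and 2.26 for those in 2, 3 and 4. Proximal peaks were denser and wider in each list, which by itself makes overlaps more frequent. The part of this in the sharing between lists was not tested. Regions of Cre mock alone numbered 1314, or 15.4% of the proximal regions against 18.3% in the middle and 18.7% in the rest of the autosomes. Those of GFP mock alone numbered 1214, or 14.3% against 17.9% and 17.5%. GFP DOX alone made up 6.21% against 7.24% and 7.02%. Cre DOX alone, with 2099 regions, made up 24.7% against 25.6% and 24.2%, so it was slightly above the rest of the autosomes.

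Doxycycline, which induces RNaseH1, went with fewer peaks in GFP cells and more in Cre cells. GFP DOX held 0.780 times the proximal peaks of GFP mock (0.745 to 0.816), against 0.648 in the middle windows and 0.687 over the list, and fewer on all 19 chromosomes. The covered length was nearly the same, at a ratio of 1.00. Cre DOX held 1.16 times the proximal peaks of Cre mock (1.12 to 1.21), against 1.15 in the middle and 1.15 over the list, and 1.94 times the covered length. By chromosome the Cre ratio ran from 0.702 on chromosome 17 to 2.01 on chromosome 9 and was below 1 on 5 of 19. In Cre cells the ratio split by sequence: masked peaks were 1.44 times as many (1.37 to 1.51), while peaks with at most 50% masked bases were 0.650 times as many (0.600 to 0.703). This was not particular to the windows: the same ratios were 1.69 and 0.587 in the middle and 1.59 and 0.618 over the autosomes. In GFP cells the ratios were 0.789 and 0.755. The GFP ratio turned to 1.11 when the same number (60219) of highest-scoring peaks was taken from each list, so its direction rests on list size. With 1 library each and depth unknown, treatment and depth cannot be told apart.

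Promoters of protein-coding genes near the centromere carried peaks of any score about as often as elsewhere. Of 906 protein-coding genes with a start site in the windows, 279, 246, 346 and 270 had a peak within 1 kb of a start, where over the autosomes 31.7%, 26.7%, 37.8% and 28.4% of genes did. As shares these were 30.8%, 27.2%, 38.2% and 29.8%. A promoter peak in all 4 lists was found for 150 genes (16.6%, autosomes 14%), and 463 genes had none in any list (51.1%, autosomes 48.3%). A top-decile promoter peak was found for 45, 46, 80 and 52 genes, where 4.51%, 3.95%, 6.92% and 3.2% of autosomal genes had it. In the middle windows it was 45, 24, 42 and 17 of 707 genes. The middle thus had as many from fewer genes in GFP mock, and fewer in each of the other lists. A top-decile peak in all 4 lists was found for 11 genes, where 0.495% of autosomal genes had it, and 5 of these 11 lay in the chromosome 9 array: Gm10717, Gm10718, Gm10719, Gm10722 and Gm11168.

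Rela led the remaining genes. It encodes the p65 subunit of the transcription factor NF-kB, lies at chr19:5637483-5648130, and its promoter peak scored 231 (mock) and 296 (DOX) in GFP cells and 377 and 116 in Cre cells, at fold enrichments of 10.3, 12.5, 13.3 and 6.62. Cre mock was the highest and Cre DOX the lowest. Bad, a pro-apoptotic member of the Bcl-2 family, and its neighbour Gpr137 shared a promoter peak within each list. These peaks scored 46, 34, 36 and 33, but they were not all at the same place. The GFP mock peak, at chr19:6943446-6943807, overlapped none of the others, which lay within chr19:6941803-6942895. Clcf1, a cytokine of the interleukin-6 family, scored 33, 30, 33 and 34, with the lists close to each other.

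Few promoters had a strong peak in a single list. Dynlt1c, a dynein light chain gene, was the 1 gene with a top-decile promoter peak in Cre mock (score 34) and no promoter peak elsewhere, and 0.471% of autosomal genes met that rule. GFP mock had 3 such genes, among them Stxbp2, which acts in vesicle exocytosis, with a score of 43, and Tmem150b, with 35, where 0.356% of autosomal genes did. GFP DOX had Gm49320, with a score of 29 (0.13% of autosomal genes), and Cre DOX had 0 (0.0913%).

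Nuclear RNA genes carried wide peaks. Malat1, a long non-coding RNA of nuclear speckles, lies at chr19:5795690-5802672. In GFP mock 5 peaks covered 46.1% of it, whereas in each of the others a single peak covered the whole gene. Its highest scores were 22, 38, 63 and 47. Neat1, the scaffold RNA of paraspeckles, was covered over 9.39%, 15.1%, 22.8% and 13.1% of its length with scores of 24, 29, 62 and 57. GFP mock was the lowest of the lists at both genes. Suv39h2, which methylates histone H3 at pericentromeric chromatin, had a promoter peak in Cre mock (score 18) and in no other list.

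Gene families of the windows are given beside the same families over the autosomes, and most had few members here. None of the 9 matrix metalloproteinase genes had a promoter peak in any list, where 14 of 22 on the autosomes had none. The 4 leukocyte immunoglobulin-like receptor genes had none either (6 of 6 on the autosomes), nor did the 3 Nlrp genes (15 of 17). Of 33 odorant and vomeronasal receptor genes 29 had none, or 87.9%, and the autosomes gave 87.9%. Zinc finger protein genes had a promoter peak for 8, 3, 8 and 6 of 26 members, against 29.8%, 22.2%, 31.6% and 29.6% over the autosomes. Of 324 long non-coding RNA genes 47, 34, 58 and 48 had a promoter peak (autosomes 13.7%, 10.3%, 16.0% and 11.8%). Of 208 short RNA genes it was 41, 38, 48 and 34, or 19.7%, 18.3% (13.3% to 24.2%), 23.1% and 16.3%, against 14.6%, 11.7%, 17.9% and 15.7% over the autosomes. Of 603 pseudogenes it was 50, 25, 46 and 46 (autosomes 7.59%, 3.68%, 6.69% and 7.81%).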

How the data were processed

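DRIP-seq was done on 4 libraries, 1 per condition. Per the paper's methods, DNA was cut with restriction enzymes before immunoprecipitation, reads were single-end, and the authors ran the nf-core/chipseq pipeline with BWA on mm10 and called peaks with MACS2 in each library. The use of inputs as controls, the read depth and the handling of multi-mapping reads are not given in the sources used here. The deposited broad peak lists hold a score, a fold enrichment (a ratio of the authors' peak caller), and −log10 p and q-values per peak. The command in the methods carries an option for narrow peaks although the files are broad, which bears on every width, covered length and overlap.

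Peaks were assigned by midpoint to the 3 Mb to 8 Mb window or to the middle 5 Mb of each of 19 autosomes. Densities were taken per Mb of called bases, shares have exact Clopper-Pearson intervals (95%), and lists were compared by overlap of 1 bp. Genes came from GENCODE M21, and promoters were 1 kb either side of any start. Sequence, masking and Rn18s-rs5 came from RefSeq's GRCm38 assembly, which the files' build matches. Named genes had a top-decile promoter peak in all 4 lists, ordered by their worst rank, or in a single list, and Malat1, Neat1 and Suv39h2 were fixed. Up to 10 genes were named by the former, up to 8 (Cre mock), 5 (GFP mock) or 3 (DOX lists) by the latter, and none of chromosome 18. Named regions were the 5 with a peak in all 4 lists and the best worst rank, and the highest of each list, of which 1 is not reported here. The members and lists were chosen with earlier results of these data known. The sets of copies and the sequences beyond the highest-scoring ones, were added after values were seen. Python 3.11.15, pandas 2.3.3, scipy 1.17.1 and numba 0.67.0 were used, and the counting of densities and overlaps was tested on simulated data. No column of another series was used.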

Additional observations from a re-analysis of the deposited data

How the results depend on the processing

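Of the results on density, width, absence and doxycycline, 123 values under other settings stayed inside the counting interval of the reported value, 89 left it and 2 changed direction. Both changes were in the doxycycline ratio: 1.11 in GFP cells with the same number (60219) of highest-scoring peaks per list, and 0.650 in Cre cells for peaks at most 50% masked. The list sizes set the first by construction, and the cause of the second was not tested. By covered length the ratios were 1.00 in GFP and 1.94 in Cre cells.

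Density ratios are given in list order. For top-decile peaks they were 1.52, 1.95, 1.67 and 2.23, for peaks at most 50% masked 1.01, 1.13, 1.09 and 1.2, and for peaks with under 50% repeated words 1.15, 1.32, 1.17 and 1.35. Without chromosomes 7, 14 and 19 they were 1.31, 1.55, 1.36 and 1.39, against all other sequence of the chromosome 1.34, 1.54, 1.37 and 1.43, and against a window midway between 3 Mb and the end 1.52, 1.86 and 1.60 in the first 3 lists. A −log10 q of at least 2 gave 1.81 in Cre DOX, equal numbers gave 1.60 in Cre mock and 1.69 in Cre DOX, and a window from 4 Mb gave 1.62 in GFP DOX and 1.45 for Cre DOX. Without protein-coding starts in 100 kb they were 1.75, 2.28, 1.90 and 1.72, with 3 or more 1.02, 1.09, 1.09 and 1.03, and with under 20% repeated words 1.34, 1.60 and, in Cre DOX, 1.44. Leaving out each chromosome in turn gave 1.33 to 1.53, 1.58 to 1.86, 1.38 to 1.61 and 1.44 to 1.60. The settings on gene starts, repeated words and single chromosomes were chosen after seeing the data.

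Width ratios for top-decile peaks were 1.75, 1.01, 1.69 and 1.46. In GFP mock, Cre mock and Cre DOX a −log10 q of at least 2 gave 1.35, 1.30 and 1.35, and equal numbers 1.29, 1.26 and 1.30. Peaks at most 50% masked gave 1.23, 1.06 and 1.09 in the lists other than GFP mock, mean width 1.26 in GFP mock and 1.23 in Cre mock, and all other sequence 1.10 in Cre mock.

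Absence is given as proximal minus middle, in percentage points. For Cre mock peaks absent from GFP mock it was -3.65 among top-decile peaks, -3.35 at the q threshold, -2.07 for peaks at most 50% masked, -9.58 within 1 kb and -3.59 for peaks with under 50% repeated words. The counting interval reached 0 for the first (-10.2 to 3.10) and for the masking setting (-5.21 to 1.09), so there this difference was not beyond counting error. For GFP mock absent from Cre mock it was -7.07 among top-decile peaks (-14.0 to 0.000983, which also reaches 0), -6.97 at the q threshold, -12.4 within 1 kb and -6.48 with under 50% repeated words. For GFP mock absent from GFP DOX it was -12.7 with equal numbers, -6.93 for peaks at most 50% masked, -13.7 within 1 kb and -6.25 with under 50% repeated words. For Cre mock absent from Cre DOX it was -7.37 for peaks at most 50% masked, -20.2 without chromosomes 7, 14 and 19 and -13.8 with under 50% repeated words. The doxycycline ratio was 0.607 in GFP cells at the q threshold, and in Cre cells 1.36 among top-decile peaks and 1.06 with equal numbers.

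No paired analysis was possible because each group is 1 library, and no setting leaves out a replicate. Reads that fit several places, the unknown depth and the unstated use of the inputs in peak calling limit all values above.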

Other observations

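The highest-scoring proximal regions found in a single list were picked after their values were seen. For GFP mock the highest was a score of 68 at chr6:3314505-3314637, in an exon of Gm8579, followed by 67 in an intron of Fam107b. For Cre mock it was 74 at chr11:7108481-7108614, in an intron of Adcy1, which encodes an adenylate cyclase, and the next was 57. For GFP DOX it was 47 at chr15:6255475-6255653, 44135 bp from Dab2, an endocytic adaptor gene. For Cre DOX it was 69 at chr8:7021788-7022014, which was intergenic.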
